A study of Caenorhabditis elegans with 4 samples.

Results

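The regions described here are the places on chromosome II of Caenorhabditis elegans at which a peak was called for the transcription factor FKH-10. Every peak on chromosome II in the deposited list for the whole series was taken, with no limit on its score, which gave 337 of 1838 peaks over 6 chromosomes. The ChIP samples were made from late embryos of the hermaphrodite strain OP337, grown at 20 °C and fixed in 2% formaldehyde, and chromatin was collected with anti-GFP antibodies, per the labels' protocols. Per the labels this strain carries the mutation unc119(ed3) and the transgene wgIs377, which holds fkh-10 joined to the TY1 EGFP FLAG tags together with a copy of unc119 as marker, was introduced by bombardment and was outcrossed 3 times. ChIP and input samples were of this same genotype, and no untagged strain was among the samples, so the peaks are not set against a strain without the tag. The 4 samples were 2 FKH-10 ChIP samples, each with its own peak list, and 2 inputs of total chromatin DNA, which entered no comparison. The labels do not say whether the replicates came from separate cultures, so a difference between their lists may be technical.

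FKH-10 belongs to the forkhead family, transcription factors that bind DNA through a winged-helix domain. In C. elegans a well known member of the family is PHA-4, which directs formation of the pharynx. In ChIP-seq, DNA bound by the tagged protein is collected with an antibody and sequenced, and a peak is a stretch where the caller found more ChIP reads than its control gave. Chromosome II is an autosome, and worm autosomes have a central region rich in conserved genes between 2 arms that hold more repeats. The native fkh-10 gene lies on chromosome I and unc-119 on chromosome III by the WBcel235 annotation, so neither native locus is on chromosome II. Positions are those of WormBase build WS220. No gene is named for a peak and no sequence is shown, since that annotation is of a different build and no WS220 genome was used. Each peak carries 1 value from the authors, read as a q-value, and "rank" below means the position of a peak when its whole list is ordered from the lowest q. The lists give no read counts, so the depth of the samples is unknown, and the intervals in brackets are exact (Clopper-Pearson) 95% intervals for counting error only. With 1 list for each replicate, no difference between the replicates could be tested.

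A minority of the series peaks on chromosome II, mostly those of lowest q, was called in both replicates, and more than 50% were in neither replicate list. The wide span at 1.644 to 1.674 Mb is described apart, and 325 series peaks lay outside it. Of the 337 series peaks, 54 (16.0%, interval 12.3 to 20.4) overlapped a peak of both replicates by at least 1 bp, where the share over all chromosomes was 15.1%. A further 63 (18.7%) overlapped replicate 1 alone, against 18.9% over all chromosomes. Replicate 2 alone was overlapped by 19 (5.64%), against 6.58%. The remaining 201 (59.6%, interval 54.2 to 64.9) overlapped neither, against 59.4%. Each of these shares on chromosome II has the share over all chromosomes inside its interval, so nothing particular to this chromosome is read from them. Outside the span the 4 numbers were 46, 63, 17 and 199 of 325 peaks.

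Replicate 1 had 129 peaks on chromosome II and replicate 2 had 77. Of the replicate 1 peaks, 59 (45.7%, interval 36.9 to 54.7) overlapped a replicate 2 peak, against 43.5% over all chromosomes. In the other direction 55 of 77 (71.4%, interval 59.997 to 81.2) overlapped, against 69.7%. Outside the span the same 46 places were called in both lists, which was 46 of 114 replicate 1 peaks (40.4%) and 46 of 65 replicate 2 peaks (70.8%). Each of these 46 places held exactly 1 peak in each replicate and 1 in the series list. The replicate 1 peaks outside the span that were shared had a median width of 258 bp and a median rank of 231, against 143 bp and 478.5 for the 68 that were not. For replicate 2 the shared peaks had a median width of 341.5 bp and a median rank of 197.5, against 304 bp and 286 for the other 19. A wider peak meets an overlap of 1 bp more easily, so the difference in width is partly built in. Widths and ranks are given as a description. Measured in bases outside the span, replicate 1 had 23.409 kb called and replicate 2 22.956 kb. The stretch called in both came to 11.906 kb, which was 50.9% of the replicate 1 bases and 51.9% of the replicate 2 bases.

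Replicate support fell away along the q order of the series list. The 325 peaks outside the span were split by q into 5 groups of 65. In the group with the lowest q, 41 peaks (63.1%, interval 50.2 to 74.7) were in both replicates, 19 in 1 replicate and 5 in neither. In the next group 3 were in both, and 31 (47.7%) were in replicate 1 alone. The following groups held 50, 58 and 61 peaks in neither replicate, or 76.9%, 89.2% and 93.8%. All 23 peaks outside the span with a q of up to 1e-10 were in both replicates, 5 of them with a q of up to 1e-20. Of the 148 with a q above 0.0001, 134 were in neither. The series list covers the whole series and may draw on the same ChIP reads as the replicate lists, so a higher overlap at low q is partly built in and is given as a description.

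**Figure D1:**
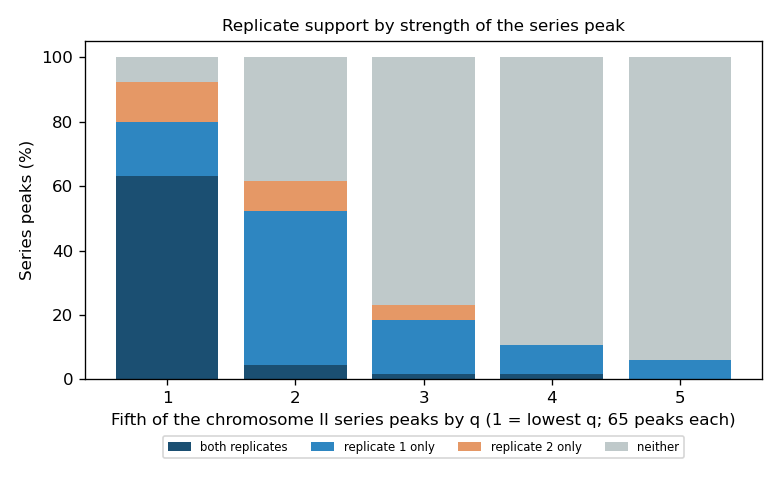
Percent of chromosome II series peaks outside the wide span (vertical axis) by group of 65 peaks in q order (horizontal axis, 1 is the lowest q), coloured by the replicate lists that each peak overlaps. The share in both replicates is 63.1% in the group of lowest q and 4.62% in the next, and the share in neither is 93.8% in the last.

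Peaks called in both replicates had the largest median width of the 4 classes, although the classes overlapped. Outside the span the 46 peaks in both replicates had a median width of 400.5 bp, with quartiles of 321 and 562 bp and a range of 204 to 1193 bp. Peaks in replicate 1 alone had a median of 223 bp and those in replicate 2 alone 294 bp. The 199 peaks in neither had a median of 168 bp and reached down to 2 bp, and 32 of them were narrower than 50 bp. The widest in replicate 1 alone, replicate 2 alone and neither had 611, 846 and 786 bp, so width did not separate the classes. Width also fell along the q order, from a median of 412 bp in the group of lowest q to 97 bp in the last, so the limit given for q holds for width as well. None of the 46 peaks in both replicates was narrower than 50 bp, and 2 of those in replicate 1 alone were. Over the whole chromosome 34 of 337 peaks (10.1%) were under 50 bp, where the other chromosomes had 110 of 1501 (7.33%). By class, the medians on the other chromosomes stood in the same order. They were 434.5 bp for both replicates, 251.5 bp for replicate 1 alone, 300 bp for replicate 2 alone and 193 bp for neither. Median width was 203 bp on chromosome II and 239 bp on the others, values that are set side by side with no test. The narrowest peaks, at 4993912 to 4993913 and 14234406 to 14234407, were 2 bp wide and in neither replicate. The widest outside the span was 11636455 to 11637647, at 1193 bp.

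**Figure D2:**
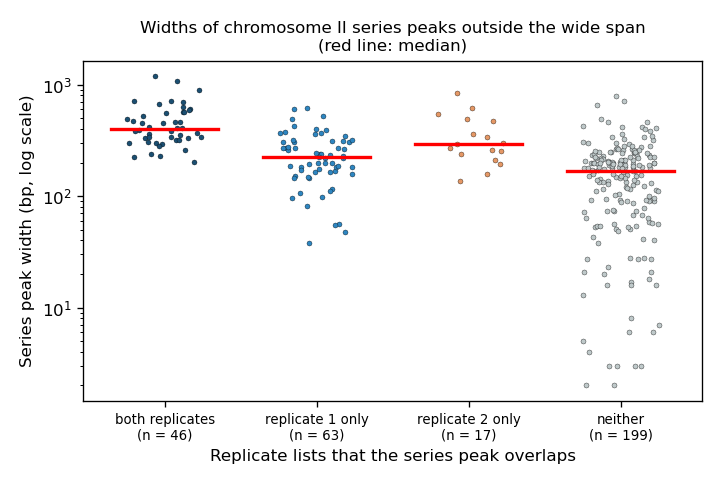
Width in bp on a log axis of each of the 325 series peaks outside the wide span, by the replicate lists it overlaps, with 1 point per peak and a red line at the median. Medians are 400.5 bp for both replicates, 223 bp for replicate 1 only, 294 bp for replicate 2 only and 168 bp for neither.

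The 46 shared places were chosen because the replicate peaks overlap there, which itself limits how far apart their midpoints can lie, so the offsets are a description. Over the 46 places the midpoints of the replicate peaks lay a median of 32.5 bp apart, with quartiles of 16.25 and 73.1 bp and a maximum of 176.5 bp. Midpoints were within 50 bp at 27 places and within 100 bp at 40. The left edges differed by a median of 44 bp and up to 365 bp, and the right edges by 38.5 bp and up to 352 bp. The replicate 2 peak was the wider at 32 of 46 places. The series peak was at least as wide as both replicate peaks at 41. The replicates overlapped each other by 10 to 629 bp, with a median of 227 bp.

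The 20 places of lowest q outside the span that were in both replicates had series ranks of 19 to 158 and widths of 341 to 1193 bp. The first was 14804244 to 14804838 (595 bp, series rank 19, q 8.85e-30). It was called at 14804287 to 14804797 in replicate 1 (rank 35) and at 14804272 to 14804831 in replicate 2 (rank 30), with midpoints 9.5 bp apart. This was the 1 place outside the span that lay in the first 10% of both replicate lists.

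Left of the chromosome's centre, 4 of the 20 places lay between 5543414 and 6114416. The peak at 5543414 to 5543972 (series rank 27, q 1.38e-24) ranked 37 in replicate 1 and 78 in replicate 2. The next, at 5661572 to 5662240 (series rank 46), ranked 65 and 59, with replicate midpoints 17 bp apart. At 5844548 to 5845262 (series rank 33) the ranks were 43 and 49, while the midpoints were 176.5 bp apart, the largest offset among the 46 places. The last of the 4, at 6113849 to 6114416 (series rank 77), ranked 101 and 127.

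Right of the centre, 5 of the 20 lay between 11634807 and 11960912. Close to one another stood 11634807 to 11635264 (series rank 110) and 11636455 to 11637647 (series rank 36). A weaker peak at 11634062 to 11634361 (series rank 210) was also in both replicates. Together with 1 peak in neither list they formed a run of 4 peaks over 3.586 kb, 3 of them in both replicates. Further right were 11746561 to 11747272 (series rank 44, q 1.73e-20) and 11749315 to 11750401 (series rank 41, q 2.52e-21). The replicates gave the first of these unlike positions in their order. Replicate 2 called 630 bp there and ranked it 27, its best rank on chromosome II outside the span, while replicate 1 called 41 bp and ranked it 589. The second ranked 80 in replicate 1, with 629 bp, and 34 in replicate 2, with 982 bp. The fifth place, 11960545 to 11960912 (series rank 69), ranked 64 and 83.

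The other 10 of the 20 had series ranks of 56 to 158. Of these, 10563262 to 10563645 ranked 61 in replicate 1 and 82 in replicate 2, and 14251294 to 14251816 ranked 83 and 86. In the left part 4133354 to 4133742 ranked 93 and 212. Near the right end 15255723 to 15256285 ranked 138 and 324. In replicate 2 the last ranks of the 20 were those of 6828235 to 6829131 (378, against 172 in replicate 1) and 13834317 to 13834728 (366, against 201). The remaining 4 were 5105046 to 5105426, 8107058 to 8107398, 12089634 to 12090088 and 13334986 to 13335689, with replicate 1 ranks of 142 to 319 and replicate 2 ranks of 113 to 303.

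Some of the shared places had unlike positions in the 2 replicate lists. As percentiles of the list, 19 of the 46 places were in the stricter 50% of both replicate lists and 10 in the weaker 50% of both. At 7 places the 2 percentiles were over 50 points apart. In 5 of these 7 the better position was in replicate 1, for example at 255173 to 255502 (percentile 20.1 in replicate 1 and 80.2 in replicate 2). In the other 2 it was in replicate 2, at 11746561 to 11747272 (82.8 and 6.15) and at 7326999 to 7327358 (87.5 and 23.9). Replicate 2 had the better percentile at 19 of the 46 places. These percentiles are of whole lists, with 711 peaks in replicate 1 and 439 in replicate 2. They therefore depend also on the peaks that are not shared, 68 and 19 outside the span. The order among the 46 places alone was not compared.

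**Figure D3:**
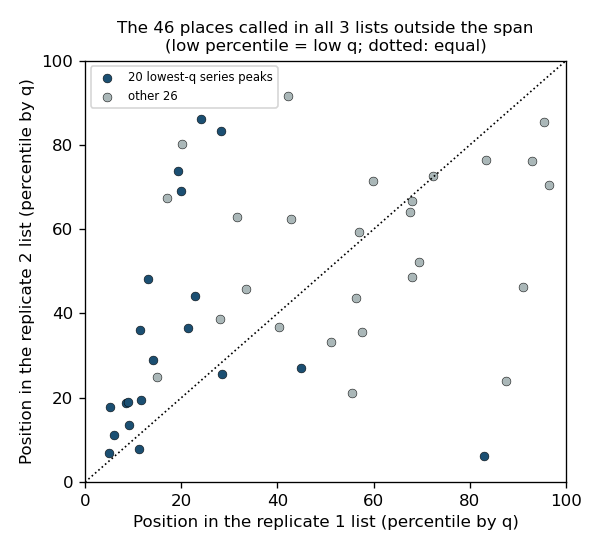
Position of each of the 46 places outside the wide span in the replicate 1 list (horizontal axis) and the replicate 2 list (vertical axis), as a percentile of that list by q where low is a low q. Dark points are the 20 places of lowest series q and grey points the other 26, and 7 of the 46 points have percentiles over 50 points apart.

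The strongest places called in 1 replicate alone had the nearest peak of the other replicate 9.576 to 237.065 kb away. Of the 63 series peaks in replicate 1 alone, the 3 of lowest q were 13976119 to 13976396 (series rank 231, replicate 1 rank 219), 8559156 to 8559417 (246 and 155) and 8028228 to 8028605 (252 and 563). The nearest replicate 2 peaks were 67.331, 237.065 and 78.521 kb away. For the 17 in replicate 2 alone outside the span, the 3 of lowest q were 9060180 to 9060675 (series rank 208, replicate 2 rank 97), 10169087 to 10169699 (215 and 163) and 6838368 to 6839213 (291 and 205). Their nearest replicate 1 peaks were 222.161, 32.654 and 9.576 kb away. Of the peaks in neither list, the 3 of lowest q were 10990478 to 10991133 (656 bp, series rank 222, q 8.62e-10), 5781902 to 5782198 (297 bp, rank 337) and 12677915 to 12678375 (461 bp, rank 368).

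Most unsupported series peaks outside the span lay over 10 kb from any replicate peak. Of the 199 outside the span, 0 had a replicate peak within 200 bp, 7 had one within 1 kb and 48 (24.1%) within 10 kb, and the median distance was 30.099 kb. Neighbouring series peaks outside the span were themselves at least 0.226 kb apart, and nearly all replicate peaks had a series peak. The 0 within 200 bp is therefore largely built in, and nothing is read from it. Conversely, 124 of 129 replicate 1 peaks (96.1%, against 93.5% over all chromosomes) and 75 of 77 replicate 2 peaks (97.4%, against 96.4%) had a series peak. The 5 of replicate 1 without one were 6 to 85 bp wide and ranked 657 to 696 of 711. In replicate 2 the 2 without one were 2628400 to 2628500 (rank 430 of 439) and 5901711 to 5902083 (373 bp, rank 233), which lay 27.821 kb from the nearest series peak. None of these 7 overlapped a peak of the other replicate.

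Along the chromosome the left part was sparse and the densest interval lay right of the centre. The last base of the rightmost peak in the 3 lists, 15273055, stood for the chromosome's length. Outside the span the left 33.3% of the length held 68 of 325 series peaks (20.9%, interval 16.6 to 25.8), the middle 119 (36.6%, interval 31.4 to 42.1) and the right 138 (42.5%, interval 37.02 to 48.04). The left part therefore lay below an equal share and the right part above it by more than counting error, while the interval of the middle part held 33.3%. These intervals treat peaks as independent, which was not tested. Both replicate lists had the same order outside the span, with 21, 43 and 50 peaks in replicate 1 and 11, 23 and 31 in replicate 2. For the 46 places in both replicates the numbers were 9, 15 and 22. Their left part (19.6%, interval 9.36 to 33.9) and right part (47.8%, interval 32.9 to 63.1) each had 33.3% inside the interval. With the span's own peaks counted, the left part of the series list held 80 of 337 (23.7%, interval 19.3 to 28.6), still the fewest. With the span counted, replicate 1 kept the same order, with 36, 43 and 50 peaks. Its left part (27.9%, interval 20.4 to 36.5) then had 33.3% inside its interval. The order did not hold in replicate 2, with 23, 23 and 31 peaks. Nor did it hold for the 54 series peaks in both replicates, with 17, 15 and 22.

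By intervals of 1 Mb, the one from 11 to 12 Mb had the most series peaks, 35, and the most in both replicates, 8 of the 35. The share in both over all chromosomes was 15.1%, and the interval from 0 to 1 Mb had 3 of 12. Of the 8, 3 lay within 11634062 to 11637647 and 2 within 11742685 to 11752054. The interval from 11 to 12 Mb also had the most peaks in each replicate list outside the span, 16 in replicate 1 and 11 in replicate 2. The intervals from 5 to 6 Mb and 6 to 7 Mb had 31 each, with 5 and 4 in both replicates. From 1 to 2 Mb there were 7 outside the span, and from 2 to 3 Mb there were 9. No peak in both replicates lay from 2 to 3 Mb, where 2 were in replicate 1 alone, or from 9 to 10 Mb, where 13 series peaks were called. With so few series peaks in each, and a share in both replicates of 15.1% over all chromosomes, nothing is read from this absence. The last 273.055 kb, beyond 15 Mb, held 11 series peaks, 2 of them in both replicates.

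**Figure D4:**
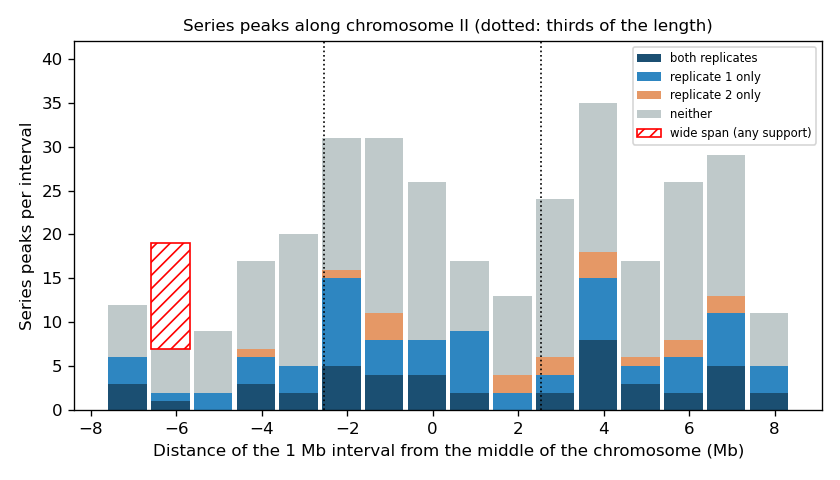
Number of series peaks (vertical axis) in each interval of 1 Mb, drawn at its distance in Mb from the middle of chromosome II (horizontal axis), coloured by the replicate lists overlapped, with the 12 peaks of the wide span hatched. The last bar covers 273.055 kb, the tallest bar has 35 peaks and 8 in both replicates, and dotted lines part the length into 3 equal parts.

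The spacing of neighbouring peaks is described by chains, with no comparison to random placement. A chain was defined as 2 or more series peaks that followed each other at no more than 10 kb, and 179 of the 337 peaks (53.1%, interval 47.6 to 58.5) were in 62 chains. Outside the span the number was 167 of 325 (51.4%), where the other chromosomes had 692 of 1501 (46.1%), values set side by side with no test. A share at a fixed gap rises with the density of peaks, which was 22.1 per Mb on chromosome II and 17.7 per Mb on the others. Of the 62 chains, 37 were pairs and 11 held 3 peaks. Outside the span, 29 of the 46 peaks in both replicates were in chains (63.04%, interval 47.5 to 76.8), and so were 98 of the 199 in neither (49.2%, interval 42.1 to 56.4).

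After the span, the chain with most peaks was at 10743555 to 10783410, where 7 peaks of 54 to 279 bp were strung over 39.856 kb. All 7 were in neither replicate, their series ranks ran from 741 to 1595, and they added up to 1.27 kb. The next, at 6825808 to 6839213, had 6 peaks over 13.406 kb. It held 6828235 to 6829131, which was in both replicates, then 6838368 to 6839213, which was in replicate 2 alone, and 4 peaks in neither. A chain of 5 narrow peaks at 7611653 to 7625282 (43 to 131 bp) also had no replicate peak. It can be set beside the chain of 5 at 11742685 to 11752054, in which 3 of the 5 peaks overlapped a replicate peak.

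The wide span is a run of peaks at 1.644 to 1.674 Mb that was set apart when the regions were chosen. It is the chain with most called bases on chromosome II. A large called stretch is therefore built into that choice, and its size is given as a description. It measured 29.84 kb and held 12 series peaks, with 21.073 kb called, which filled 70.6% of it and made up 21.7% of all bases called on chromosome II in the series list. It stood alone, with no series peak for 302.6 kb to its left and 521.456 kb to its right. No replicate peak lay in the 521.456 kb on the right either. The 521.456 kb was the second longest stretch between neighbouring series peaks on the chromosome, after 526.901 kb at 604237 to 1131137.

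Within the span 8 of the 12 series peaks overlapped both replicates, 2 overlapped replicate 2 alone and 2 overlapped neither. The widest was the leftmost, which ended at 1650546 (6189 bp, series rank 9, q 1.01e-86). Next came 1666213 to 1669233 (3021 bp, series rank 13), 1653404 to 1656056 (2653 bp, rank 14), 1663492 to 1665741 (2250 bp, rank 15) and the rightmost, which began at 1671990 (2208 bp, rank 17). The other 3 in both replicates were 1669438 to 1670538 (rank 42), 1651532 to 1653138 (rank 45) and 1656300 to 1657064 (rank 142). At 1669438 to 1670538 and 1651532 to 1653138 the replicate peaks lay under different parts of the series peak and did not overlap each other. Those were the 2 exceptions among the 54 series peaks in both replicates. In neither replicate were 1650832 to 1651285 and 1658585 to 1658775, and in replicate 2 alone were 1660757 to 1660894 and 1670793 to 1671288.

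The replicates filled the span in different ways. Replicate 1 had 15 short peaks of 171 to 887 bp (median 294 bp) that filled 21.8% of the span, with ranks of 70 to 618. Replicate 2 had 12 peaks of 164 to 3450 bp (median 1140 bp) that filled 53.9%, with ranks of 8 to 386. Its strongest was 1644421 to 1647870 (rank 8, q 3.14e-33), and 6 of its 12 were among the first 50 of the list, against 0 of 15 in replicate 1. The lists differ in length, with 711 peaks in replicate 1 and 439 in replicate 2, so the first 50 are a smaller share of the replicate 1 list. The strongest of replicate 1 was 1663990 to 1664876 (887 bp, rank 70, q 1.91e-10). Both replicates called 4.588 kb in common, which was 70.5% of the replicate 1 bases and 28.5% of the replicate 2 bases in the span. Replicate 2 alone called 11.494 kb and replicate 1 alone 1.923 kb. In the series list 3.465 kb was called that neither replicate list held. The replicate 2 peaks in the span were 41.2% of all bases this replicate called on chromosome II, and the replicate 1 peaks were 21.8%. In all 3 lists the middle of the span was nearly empty. Between 1657064 and 1663492 the series list had peaks of 191 and 138 bp, replicate 2 had 1 peak of 164 bp and replicate 1 had none, its longest gap being 7499 bp.

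**Figure D5:**
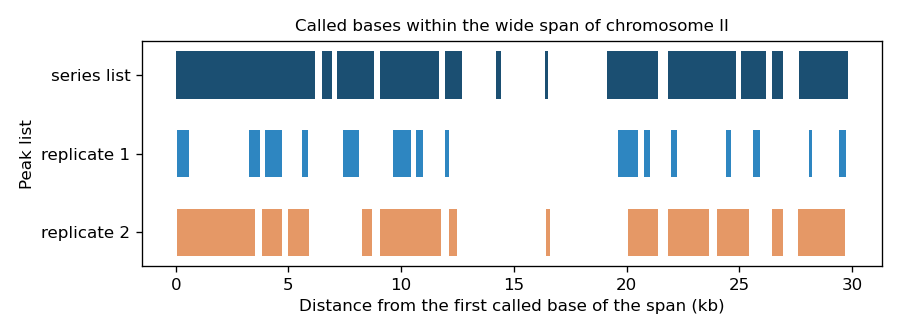
Called stretches in the wide span of chromosome II (1.644 to 1.674 Mb) in the series list and both replicate lists, with distance in kb from its first base on the horizontal axis and each filled block 1 peak. The series list fills 70.6% of the span, replicate 1 21.8% in 15 short peaks and replicate 2 53.9% in 12 peaks, with a nearly empty middle in all 3 lists.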

How the data were processed

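The peak lists were deposited by the authors, 1 for each FKH-10 ChIP replicate and 1 for the whole series, with peaks called on WormBase WS220, per the file headers, by PeakSeq, per the lists' source field. The aligner, the PeakSeq version, its threshold, how inputs were used and whether reads were pooled for the series list were not given in the sources used here. The file headers do not name the 1 value per peak in the deposited lists, which is read here as a q-value. All values are below 0.001, which does not tell a q-value from a p-value. The value was used within a list, to order peaks and to count them at fixed limits. Ranks and percentiles from that order were set side by side between lists.

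Samples were grouped by title. Peaks overlapped where they shared at least 1 bp, and the overlap was checked on simulated lists. Intervals are exact Clopper-Pearson at 95%. No p-value was computed, as 1 list per replicate allows no test over samples. Named regions were the span (the chain of peaks with most called bases), the 20 shared peaks of lowest q outside it, the 3 of lowest q in each other class, the 3 chains with most peaks, the widest and narrowest peaks and replicate peaks shared by both replicates but without a series peak, of which there were 0. Other named regions were picked after their values were seen. The members, lists and rules were chosen with earlier results of these data known. Chromosomes of fkh-10 and unc-119 came from RefSeq's WBcel235 table. Python 3.11.15, numpy 2.4.6, pandas 2.3.3, scipy 1.17.1 and matplotlib 3.10.9 were used.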

Additional observations from a re-analysis of the deposited data

How the results depend on the processing

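Of 41 alternative values, all planned, 29 stayed within the counting interval of the value reported and 12 moved beyond it. The share of series peaks in both replicates stayed within its interval when 50% of the shorter peak had to overlap, with 200 bp windows at midpoints, within the stricter 50% of each list, outside the span and for peaks of at least 50 bp. Leaving out 1 replicate counts overlap with the other list alone, so by construction the share of supported series peaks became 21.7% to 34.7% and that of unsupported ones 65.3% to 78.3%, and the median width of supported peaks 313 to 412 bp. Within the stricter 50% of each list, 55.8% of replicate 2 peaks overlapped replicate 1, from 71.4%. This setting also cuts replicate 1 on chromosome II from 129 to 54 peaks, so fewer are left to overlap. How much of the change comes from that was not tested. The middle 33.3% of the chromosome held 35.3% of series peaks, and 29.9% to 33.3% in the replicate lists alone. The middle 50%, a wider window, held 52.8%. The share of peaks in chains was 39.2% with gaps of up to 5 kb, 73.3% with gaps of up to 20 kb, and 35.1% to 40.3% in the replicate lists alone, which hold fewer peaks. No paired analysis was possible because only the ChIP samples have peak lists here, while the replicate numbers pair them with inputs. How depth bears on the length of a list is unknown, since the lists hold no read counts.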

Other observations

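Of the 46 places in both replicates outside the span, 4 ranked beyond 500 in the series list, and these were picked out once their values were known. The weakest in the series list was 3994527 to 3994975, with series rank 1416 of 1838 (q 0.000362), although it ranked 107 of 711 in replicate 1 and 109 of 439 in replicate 2. Its edges hardly differed between the lists, at 3994528 to 3994975 in replicate 1 and 3994529 to 3994972 in replicate 2, and it was the 1 place of 46 at which both edges were within 10 bp between the replicates. The next lay at the left end of the chromosome, at 54 to 528 (series rank 1019), and was called at 131 to 500 in replicate 1 (rank 394) and at 52 to 528 in replicate 2 (rank 93). The first series peaks of the other 5 chromosomes began between 8.553 kb (chromosome V) and 291.982 kb (chromosome X) from the left end. The other 2 were 14338675 to 14339086 (series rank 753), which ranked 660 and 334, and 11484595 to 11484851 (series rank 535), which ranked 678 and 375.

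The peak at 14338675 to 14339086 lay close to a stronger shared peak at 14337842 to 14338448 (series rank 303), which ranked 121 in replicate 1 and 296 in replicate 2. Another close pair of shared peaks was at 3519201 to 3519425 (series rank 400) and 3521385 to 3521615 (series rank 304), both under 250 bp wide. In replicate 1 these ranked 484 and 515, and in replicate 2 293 and 319.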
